A study of Mus musculus with 5 samples.

Results

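The major urinary protein (Mup) genes are followed here through 8 rows of a liver expression table, Mup1, Mup3, Mup9, Mup15, Mup17, Mup19, Mup20 and Mup21. They were listed by symbol, from 13966 genes in all, and the list was made with earlier results of these data known. A further 9 rows carry a Mup symbol (Mup2, Mup4, Mup7, Mup8, Mup10, Mup11, Mup12, Mup13 and Mup14), and they are given beside the listed genes because the copies are so alike. RNA had been sequenced from hepatocytes of ICR mice, an outbred stock, that received a fluorescent reporter of fatty acid oxidation, and the cells had been sorted by its signal. Bezafibrate, a lipid-lowering drug that activates peroxisome proliferator-activated receptors, gave a negative, a positive and a high gate, and control mice gave a positive and a negative gate. There is 1 library for each of these 5 groups, so nothing below rests on replicates, no p-value is given for any gene, and each value describes these libraries and not the conditions. Treatment and mouse cannot be told apart, and the sources used here do not give the number of mice, their sex, the dose or the duration.

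Major urinary proteins are small lipocalins, barrel-shaped proteins that carry hydrophobic ligands. Hepatocytes make them in large amounts, and the blood carries them to the kidney, which passes them into urine, where they bind and slowly release volatile scent molecules. In mouse liver the genes are known for higher expression in males, under the pulsed release of growth hormone and the transcription factor STAT5. Mup20 encodes darcin, a pheromone protein of male urine.

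The genes lie in 1 cluster on the minus strand of chromosome 4, at chr4:59956804-62150863 in GRCm38, the assembly also called mm10, a stretch of 2194060 bases. The annotation has 22 protein-coding Mup genes there, of which 17 have a row in the table. Of these, 13 are central copies, whose coding sequences differ from that of Mup1 by at most 10 aligned bases. Where they align, they are 98.5% to 99.8% identical to each other. Gaps are not counted, and Mup7, Mup8, Mup9 and Mup13 have 705 annotated coding bases against 540 for Mup1. The other 4 (Mup3, Mup4, Mup20 and Mup21) are more divergent, at 84.1% to 91.5% identity with the central copies, and are called peripheral here. Among the listed genes, Mup1 spans chr4:60498012-60501960, Mup9 chr4:60418046-60421952, Mup15 chr4:61435790-61439743, Mup17 chr4:61591929-61595871 and Mup19 chr4:61778324-61782269. The listed peripheral genes are Mup20 at chr4:62050234-62054158, Mup3 at chr4:62083476-62087342 and Mup21 at chr4:62147932-62150863.

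The first 100 coding bases show how little tells the copies apart. They are read from the GENCODE transcripts for GRCm38, 5′ to 3′ from the start codon, and capitals mark bases that differ from Mup1 or are inserted relative to it. Since the proteins are secreted, this stretch opens with the signal peptide.
Mup1: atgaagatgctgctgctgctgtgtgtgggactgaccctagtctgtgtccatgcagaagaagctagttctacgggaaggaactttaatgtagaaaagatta
Mup2: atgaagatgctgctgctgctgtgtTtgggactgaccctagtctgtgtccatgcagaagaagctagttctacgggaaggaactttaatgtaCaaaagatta
Mup10: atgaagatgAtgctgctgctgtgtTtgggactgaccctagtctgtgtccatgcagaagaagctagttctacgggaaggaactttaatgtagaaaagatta
Mup15: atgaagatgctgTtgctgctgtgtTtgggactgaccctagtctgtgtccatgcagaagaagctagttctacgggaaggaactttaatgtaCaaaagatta
Mup17: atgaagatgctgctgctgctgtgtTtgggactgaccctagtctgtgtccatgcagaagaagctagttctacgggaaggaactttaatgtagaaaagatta
Mup19: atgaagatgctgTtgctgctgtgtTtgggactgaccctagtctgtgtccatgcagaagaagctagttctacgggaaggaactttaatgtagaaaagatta
Mup3: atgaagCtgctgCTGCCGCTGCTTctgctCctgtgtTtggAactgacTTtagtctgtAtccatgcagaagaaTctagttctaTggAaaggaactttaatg
Mup20: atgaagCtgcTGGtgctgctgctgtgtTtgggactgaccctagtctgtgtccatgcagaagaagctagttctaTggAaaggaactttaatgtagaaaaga
In the whole coding sequence, counted from 1 at the A of the start codon, Mup2 differs from Mup1 by G25T, G91C and A472G. Mup10 differs by C10A, G25T, T204A, G249C and A472G, and Mup15 by C13T, G25T and G91C. Mup3 differs from Mup1 at 78 aligned coding bases, Mup20 at 48 and Mup21 at 84.

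The counting of reads could therefore split the central copies. Among windows of 150 bases, the read length in the labels, 17.5% of those in the Mup1 transcript, 9.25% in Mup2, 21.7% in Mup9, 15.6% in Mup10 and 9.28% in Mup15 occur in no other Mup copy of the annotation. The share is 59.6% for Mup17 and 0.900% (7 of 778 windows) for Mup19. For Mup3 and Mup21 it is 100%, and for Mup20 68.9%. Values of Mup3, Mup20 and Mup21 are thus the firmest for single genes, those of the central copies are uncertain one by one, and sums over copies are given beside them. These windows use the reference assembly, and the alleles of the outbred mice were not analysed here.

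Libraries held between 5056884 and 7146578 recovered reads. Values below are normalised read counts as deposited, and fold values are their ratios, with exact Clopper-Pearson 95% intervals that cover counting error only. Rn45s, the ribosomal RNA precursor, took 10.5%, 18.5% and 13.5% of reads in the negative, positive and high gates of bezafibrate, against 34.8% and 36.3% in the positive and negative gates of control. The part of this difference in the results was not tested. Summed hepatocyte markers, albumin among them, ranged from 69798 to 95694 in bezafibrate libraries and from 42890.4 to 43985 in control libraries. Summed markers stayed between 4.40 and 8.19 for Kupffer cells (6 of 10 in the table, Adgre1, Vsig4, Marco and Timd4 not among them) and between 18.9 and 34.4 for endothelial cells (7 of 8). Stellate markers (6 of 7, Lrat at 0 in some library) summed to 30.7 to 38.9 in bezafibrate and 101 to 111 in control libraries. Cholangiocyte markers (4 of 6) summed to 6.46 to 13.1 in bezafibrate and 2.80 to 7.39 in control libraries. The part of these cells in the results was not tested. In such bulk samples fewer cells of a type and less RNA per cell cannot be told apart.

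The listed Mup genes were together about 2.4 to 3 times as high in bezafibrate libraries as in control libraries of the same gate, a difference that nearly closed when libraries were scaled by albumin. Their sum was 7592, 6584 and 6099.9 in the negative, positive and high gates of bezafibrate, against 2754 and 2514 in the positive and negative gates of control. Every bezafibrate library stood above both control libraries. Bezafibrate over control was 3.02-fold for the negative gates (2.96 to 3.08) and 2.39-fold for the positive gates (2.34 to 2.44). As a share of reads outside Rn45s, the listed genes took 0.890%, 0.855% and 0.775% in the negative, positive and high gates of bezafibrate, against 0.387% and 0.353% in the positive and negative gates of control.

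Albumin, the most abundant secreted protein of hepatocytes, had a similar difference between treatments. It had a normalised read count of 72188, 48208 and 54530.1 in the negative, positive and high gates of bezafibrate, against 23064 and 24303 in the positive and negative gates of control. Scaled by albumin, the Mup sum was 1.02 times the control level in the negative gate and 1.14 times in the positive gate. Albumin is 1 gene. Over 29 abundant secreted liver proteins, albumin among them, the median log2 difference was 1.07 in the negative gate and 0.68 in the positive gate. That of the Mup sum was 1.59 and 1.26. Beside albumin's own folds of 2.97 and 2.09, Mup9, Mup10, Mup15, Mup20 and Mup21 had larger folds in both gates, and Mup3 smaller ones in both. Mup17 had a smaller fold in the negative gate, and its positive-gate interval (1.70 to 2.18) includes that of albumin. For Mup1 the negative-gate interval (2.86 to 3.0) includes albumin's fold, and the positive-gate fold of 2.26 was larger. With all 17 Mup rows in the sum, the fold was 2.32 (2.29 to 2.36) in the negative gate and 1.79 (1.77 to 1.82) in the positive gate.

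Among all 8981 genes with a mean of at least 5, 923 genes (10.3%) were at least 2-fold higher and 526 (5.86%) at least 2-fold lower in bezafibrate negative than in control negative, on the log2(value + 1) scale. All 8 listed genes passed that filter, Mup19 only through bezafibrate negative, the library where it was high, so that its difference was fixed by the filter. The other 7 were all at least 2-fold higher in the deposited values. Scaled by column totals without Rn45s, Mup3 had a log2 difference of 0.84, under 2-fold. That scaling changes log2 ratios by -0.26 here, before the pseudocount, and the deposited difference of Mup17 was 1.17. For bezafibrate positive over control positive, 446 genes (4.97%) were at least 2-fold higher and 261 (2.91%) at least 2-fold lower, and 5 of these 7 genes were higher and 0 lower. Their median log2 difference, without Mup19, was 2.05 in the negative gate and 1.83 in the positive gate, beside 0.02 and 0.00 over all genes. Reads shared between copies mean that these genes are not independent measurements, and the list was made with earlier results of these data known.

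**Figure D1:**
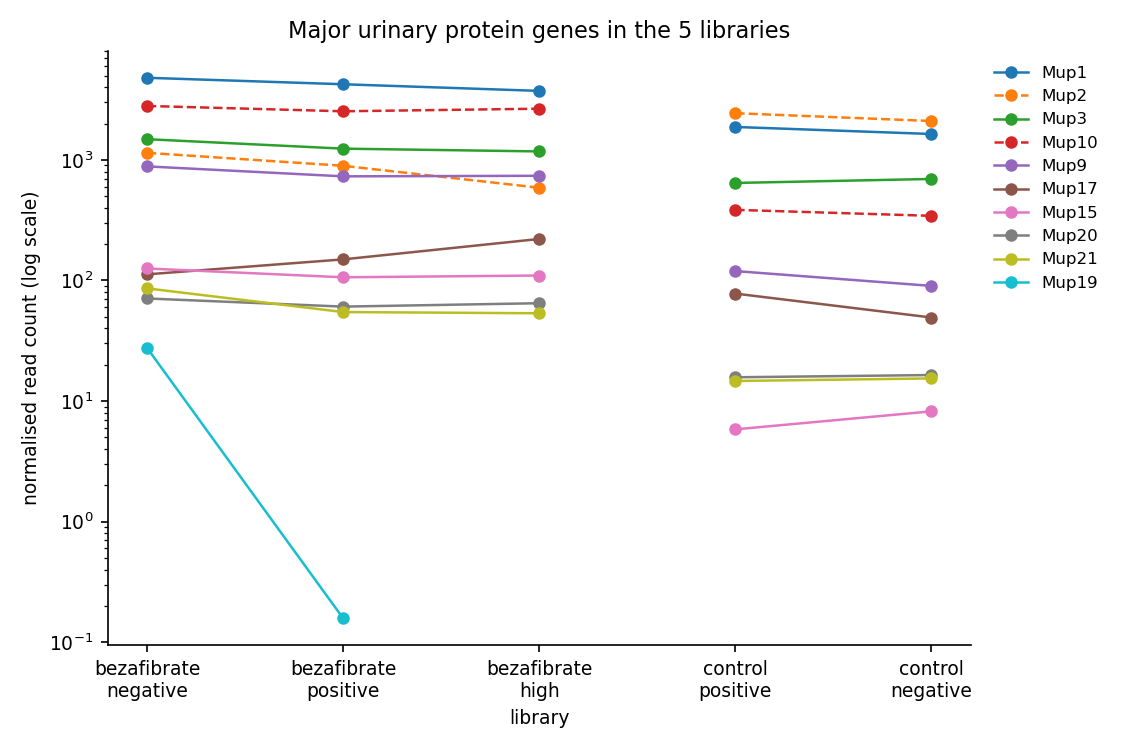
Normalised read count (log axis) of the 8 listed Mup genes (solid lines) and of Mup2 and Mup10 (dashed lines) in the 5 libraries, 1 point per library, with lines joining gates of 1 treatment. Values of 0 cannot be drawn on a log axis, so Mup19 has points in 2 libraries only. Mup2 is the highest of these genes in both control libraries at 2440.1 and 2102, and Mup1 in all 3 bezafibrate libraries at 3737 to 4800.1.

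Mup1 was the most abundant of the listed genes in each library. Its normalised read count was 4800.1, 4242 and 3737 in the negative, positive and high gates of bezafibrate, against 1876 and 1640.0 in the positive and negative gates of control. The bezafibrate libraries lay above the control libraries with no overlap, 2.93-fold (2.86 to 3.0) in the negative gate and 2.26-fold (2.21 to 2.32) in the positive gate. Per kilobase of transcript, a scale on which genes can be set side by side, the level of Mup1 was 5178 in bezafibrate negative and 1769 in control negative, against 4577 and 4187 for Apoa1, the main protein of high-density lipoprotein.

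Mup2, which differs from Mup1 by 3 coding bases, went the other way. It had 1145, 894 and 588 in the negative, positive and high gates of bezafibrate, against 2440.1 and 2102 in the positive and negative gates of control. All 3 bezafibrate values were below both control values, at 0.545 of the control level in the negative gate (0.529 to 0.561) and 0.366 in the positive gate (0.355 to 0.378). The sum of Mup1 and Mup2 had a fold of 1.59 (1.56 to 1.62) for the negative gates and 1.19 (1.17 to 1.21) for the positive gates. Of the 12 Mup rows past the filter, Mup2 alone was at least 2-fold lower in the positive gate, and 7 were at least 2-fold higher. Over all genes the shares there were 2.91% lower and 4.97% higher. For the negative gates 9 were higher and 0 lower, beside 10.3% and 5.86% of all genes. Mup19 is among the 9, and its difference there was fixed by the filter. These rows share reads and are not independent measurements.

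Mup10, a central copy outside the listed genes, was the second most abundant in bezafibrate libraries. Its values were 2803, 2531 and 2660 in the negative, positive and high gates of bezafibrate, against 385 and 344 in the positive and negative gates of control. The groups were far apart, at 8.15-fold (7.76 to 8.58) in the negative gate and 6.57-fold (6.26 to 6.90) in the positive gate.

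The make-up of the family does not depend on how libraries are scaled against each other. Mup2 took 9.89%, 8.90% and 6.26% of the reads of all 17 Mup rows in the negative, positive and high gates of bezafibrate, against 43.6% and 42.2% in the positive and negative gates of control. Mup10 took 24.2%, 25.2% and 28.3% in bezafibrate, against 6.88% and 6.90% in control. The share of Mup1 was 41.5%, 42.2% and 39.8% in bezafibrate, against 33.5% and 32.9% in control. The 4 peripheral copies together held 13.5% to 14.2% in bezafibrate and 12% to 14.6% in control, mostly through Mup3. Among them, Mup20 held 0.604% to 0.690% in bezafibrate, against 0.281% to 0.330% in control, and Mup21 held 0.544% to 0.743%, against 0.262% to 0.309%. Sequence variants between mice of the outbred stock were not analysed here, and their part in this was not tested.

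**Figure D2:**
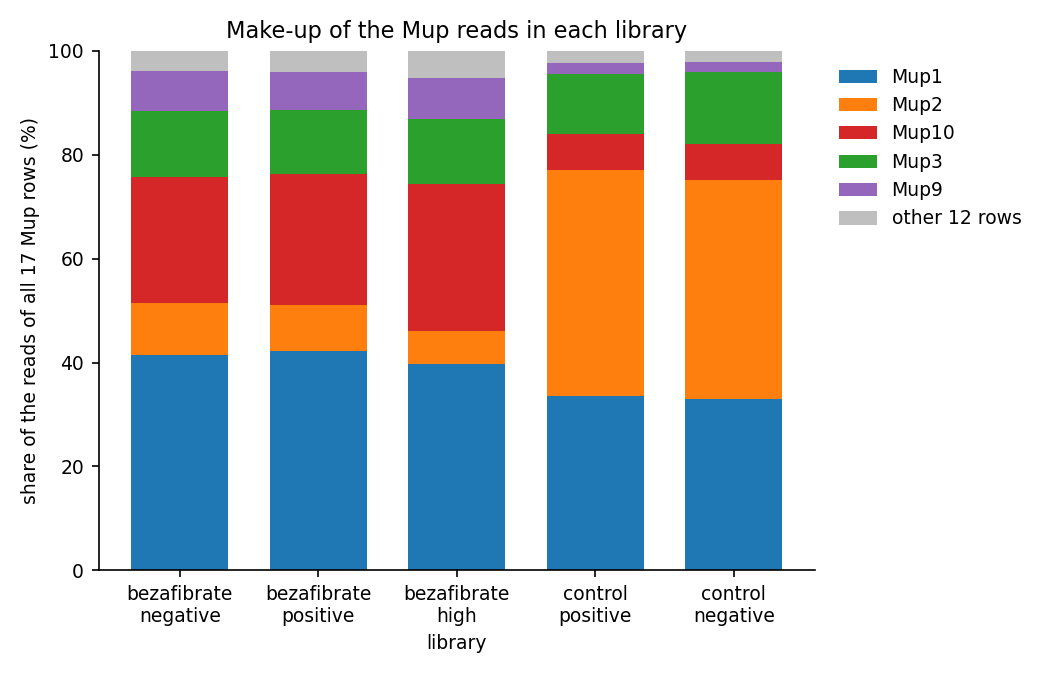
Share of the reads of all 17 Mup rows (%) in the 5 libraries, stacked to 100%, for Mup1, Mup2, Mup10, Mup3 and Mup9, with the remaining rows pooled (grey). Mup2 holds 6.26% to 9.89% in bezafibrate libraries and 42.2% to 43.6% in control libraries, while Mup10 holds 24.2% to 28.3% and 6.88% to 6.90%.

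The peripheral genes, whose reads can be placed best, were also higher in the bezafibrate libraries. Mup3 had 1486, 1239.8 and 1176 in the negative, positive and high gates of bezafibrate, against 644 and 695 in the positive and negative gates of control. Bezafibrate over control was 2.14 (2.06 to 2.22) for the negative gates and 1.93 (1.85 to 2.01) for the positive gates, with no overlap between treatments. Mup20, the darcin gene, had 70.9, 60.7 and 64.8 in bezafibrate, against 15.7 and 16.4 in the positive and negative gates of control. Its fold was 4.32 (3.41 to 5.53) in the negative gate and 3.86 (3.0 to 5.02) in the positive gate. Mup21 had 86.0, 54.7 and 53.4 in bezafibrate, against 14.7 and 15.4 in the positive and negative gates of control. That is 5.58-fold (4.39 to 7.19) in the negative gate and 3.73-fold (2.87 to 4.91) in the positive gate.

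Among central copies, Mup9 and Mup15 had the widest gaps between treatments of the listed genes read in every library. Mup9 had 883, 731 and 738 in the negative, positive and high gates of bezafibrate, against 120 and 90.1 in the positive and negative gates of control. Its fold was 9.80 (8.90 to 10.8) in the negative gate and 6.11 (5.59 to 6.68) in the positive gate. Mup15 had 126, 106 and 110 in bezafibrate, against 5.82 and 8.21 in the positive and negative gates of control, from 27 and 40 reads. Its fold was 15.3 (11.2 to 21.6) in the negative gate and 18.3 (12.4 to 27.9) in the positive gate. Both genes have few windows of their own, so part of their reads could belong to other copies.

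Mup17 was higher in bezafibrate too, but followed the bezafibrate gates in another way than the other listed genes. Its values were 112, 150 and 221 in the negative, positive and high gates of bezafibrate, against 77.8 and 49.3 in the positive and negative gates of control. The positive and negative gates gave folds of 1.92 (1.70 to 2.18) and 2.28 (1.97 to 2.64), bezafibrate over control.

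Mup19 was found almost wholly in 1 library. It had 207 reads in bezafibrate negative, 1 read in bezafibrate positive and 0 reads in the other 3 libraries, which gave normalised read counts of 27.6, 0.158 and 0. Against a floor of 3 reads in control negative, it was at least 44.8-fold higher in bezafibrate negative. With 7 of 778 windows of its own, the reads cannot be placed on Mup19 with certainty, and the sum of the listed genes without it, 7564 in bezafibrate negative, differs little from the sum with it.

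The other Mup rows were low. Mup7 had 21.9, 26.0 and 27.0 in the negative, positive and high gates of bezafibrate, against 9.27 and 11.5 in the positive and negative gates of control. The row named Mup13 had 6.0 to 10.6 in bezafibrate and 6.90 to 8.42 in control, with ranges that overlap. Mup4, Mup8, Mup11, Mup12 and Mup14 did not exceed 2.13 in any library, and no fold is read from them. A row named Gm2083, which RefSeq lists as an older symbol of Mup13, had 1285, 1012 and 664 in bezafibrate, against 487 and 543 in the positive and negative gates of control. Which of these rows gives the level of Mup13 was not tested. Gm2083 was left out of the family. Adding it to the 17 rows, a choice made after seeing the data, gave folds of 2.33 and 1.82 in the negative and positive gates.

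**Figure D3:**
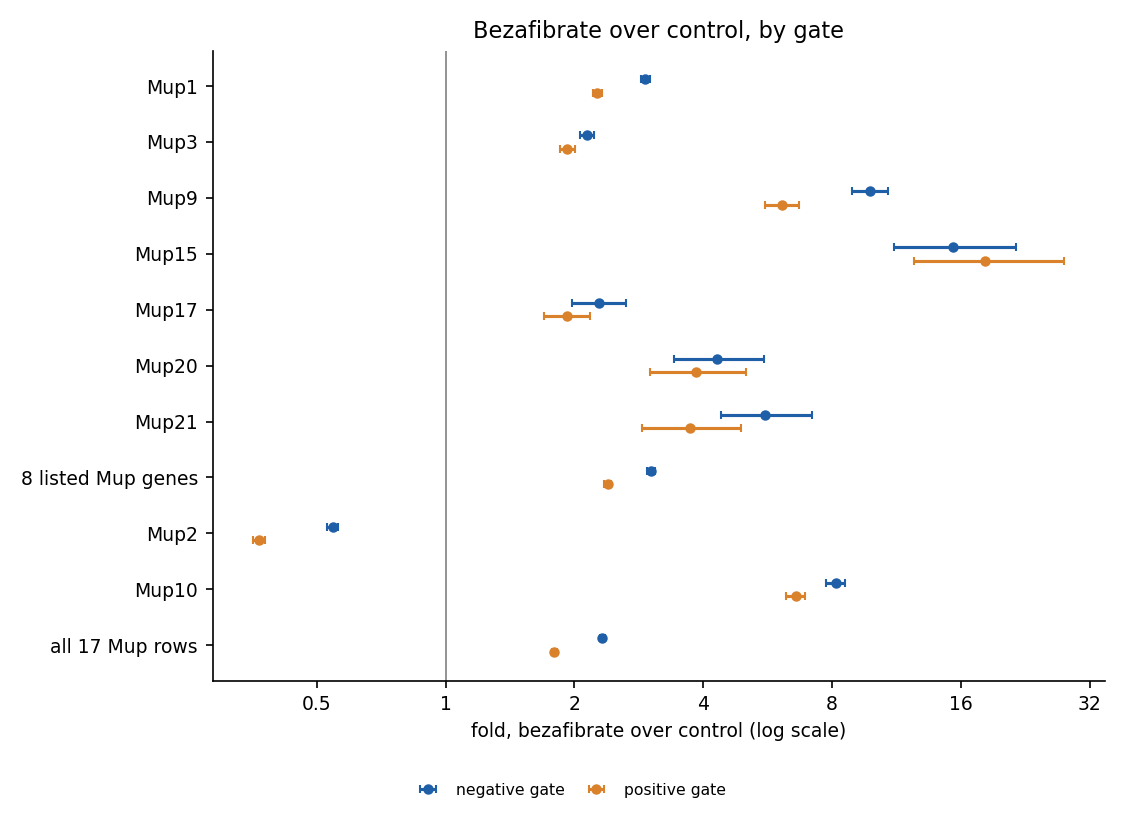
Fold of bezafibrate over control (log axis) for 7 of the listed Mup genes, Mup2, Mup10 and the sums, in the negative gate (blue) and the positive gate (orange); bars are 95% counting intervals, with no replicates. Mup2 lies below 1 in both gates at 0.545 and 0.366, and all other genes and sums drawn lie above 1. Mup19, at 0 in both control libraries, is not drawn.

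Between gates, the sum of the listed genes differed less than between treatments in the deposited values, though not when scaled by albumin. Mup2 and Mup17 differed between gates by as much as or more than between treatments in some pairs. The sum of the listed genes was 0.867 (0.856 to 0.878) in bezafibrate positive relative to bezafibrate negative, and 0.927 (0.914 to 0.939) in bezafibrate high relative to bezafibrate positive. For bezafibrate high relative to bezafibrate negative, the ratio was 0.804 (0.794 to 0.813). In control mice the positive gate was 1.10 times the negative gate (1.07 to 1.12), the opposite direction, although the bezafibrate ratio of positive over negative turned to 1.30 with albumin scaling, since albumin itself was at 0.668 there. Among all genes, 0.256% were at least 2-fold higher or lower in bezafibrate positive over negative, 0.156% in high over positive, 0.267% in high over negative and 0.334% in control positive over negative. Of the listed genes, Mup19 alone was 2-fold lower, in the positive and in the high gate relative to the negative gate of bezafibrate. It passed the filter only through bezafibrate negative, so these differences were fixed by the filter. Of the other 7 listed genes, 0 were at least 2-fold higher or lower in any pair of gates.

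Mup17 was higher with a brighter gate in both treatments, under each scaling run on single genes. The ratio was 1.33 (1.21 to 1.46) for bezafibrate positive over negative, 1.48 (1.36 to 1.60) for high over positive and 1.97 (1.81 to 2.14) for high over negative. For control positive over negative it was 1.58 (1.34 to 1.87). Its share of the reads of the 17 rows was 0.971%, 1.49% and 2.35% in the negative, positive and high gates of bezafibrate, against 1.39% and 0.990% in the positive and negative gates of control. With 1 library a gate, the spread between libraries is unknown.

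In the deposited values, Mup2 was lower with a brighter gate in bezafibrate libraries, at 0.781 (0.755 to 0.808) for positive over negative and 0.658 (0.632 to 0.684) for high over positive. In control libraries its ratio for positive over negative was 1.16 (1.13 to 1.19). Mup21 was 0.636 (0.557 to 0.726) in bezafibrate positive relative to negative, 0.977 (0.844 to 1.13) in high relative to positive, and 0.952 (0.675 to 1.34) in control positive relative to negative. Mup3 was below 1 in all of these, at 0.835, 0.949 and 0.927. For Mup15, Mup20 and Mup21 the control interval includes 1, so no difference between the control gates was detectable at this depth.

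**Figure D4:**
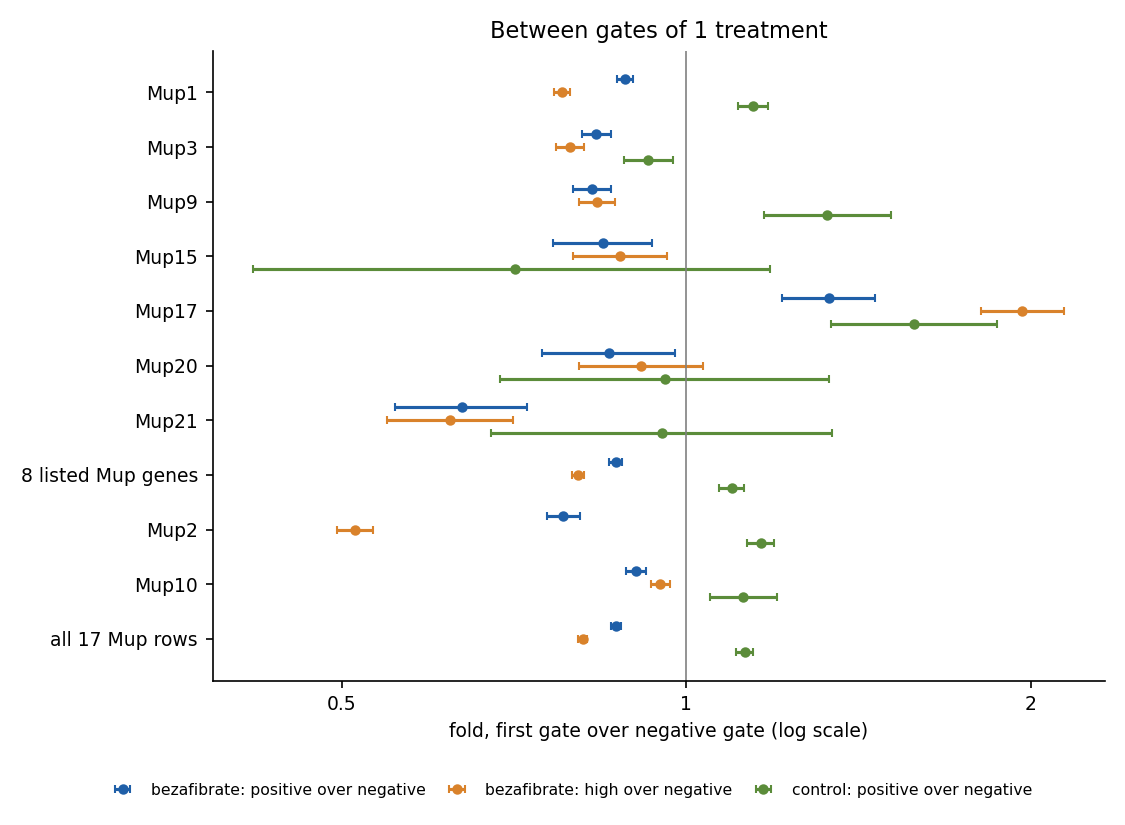
Fold between gates of 1 treatment (log axis) for 7 of the listed Mup genes, Mup2, Mup10 and the sums: bezafibrate positive over negative (blue), bezafibrate high over negative (orange) and control positive over negative (green), with 95% counting intervals and no replicates. Mup17 lies above 1 in all 3, at 1.33, 1.97 and 1.58. Mup1, Mup2, Mup9, Mup10 and both sums lie below 1 in bezafibrate and above 1 in control. Scaled by totals without Rn45s, Mup10 turns to just above 1 in bezafibrate. Scaled by albumin, the sum of the 8 genes turns to 1.30 (positive) and 1.06 (high), and single genes were not scaled this way.

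Scaling matters for the family sum more than for its make-up. Scaled by the column totals without Rn45s, bezafibrate over control was 2.52 in the negative gate and 2.21 in the positive gate, and by all reads it was 3.55 and 2.76. Bezafibrate positive over negative was 0.961 without Rn45s and 1.30 when scaled by albumin, so its direction depends on the scaling. Control positive over negative stayed between 1.10 and 1.15 under these scalings.

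**Figure D5:**
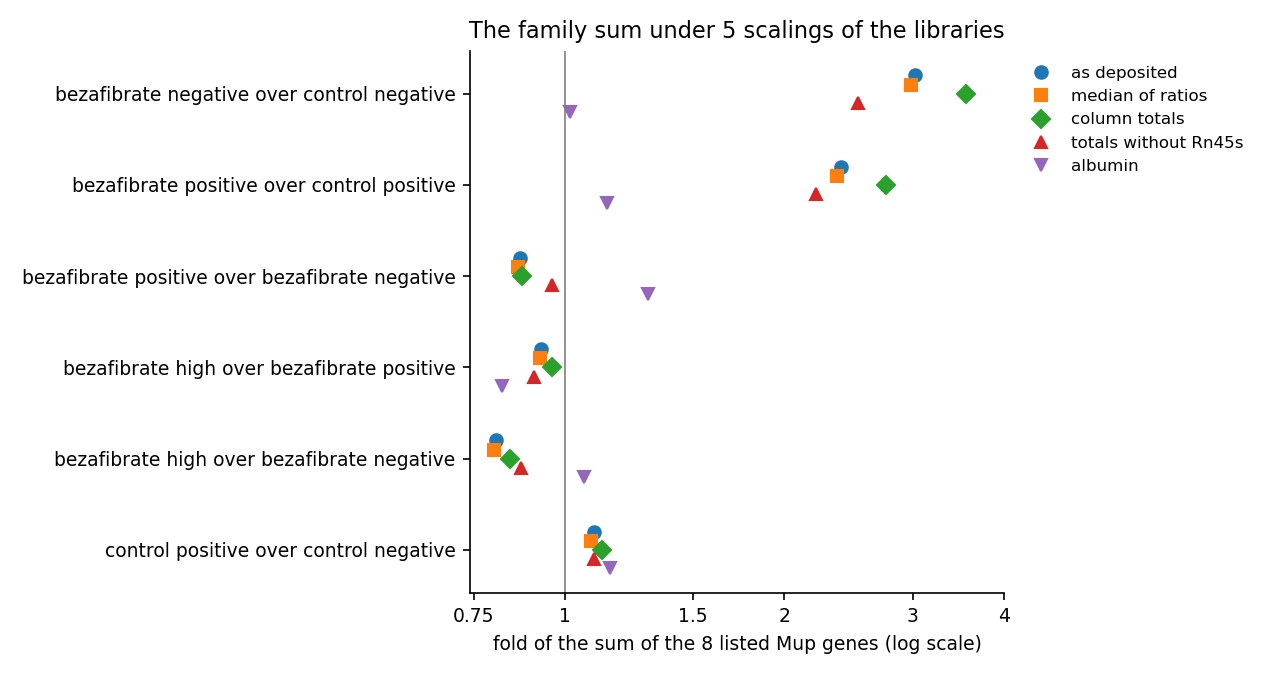
Fold of the sum of the 8 listed Mup genes (log axis) in the 6 comparisons under 5 scalings of the libraries, 1 symbol per scaling. Bezafibrate over control lies between 2.21 and 3.55 except with albumin, where it is 1.02 in the negative gate and 1.14 in the positive gate.

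The growth hormone pathway, which governs the Mup genes, was followed through 11 genes, all past the filter. Their median log2 difference was 0.18 in the negative gate and 0.02 in the positive gate, bezafibrate over control, with 0 at least 2-fold higher and 2 at least 2-fold lower in each. The all-gene shares, higher first, were 10.3% and 5.86% for the negative gates and 4.97% and 2.91% for the positive gates. Igf1, the hormone that the liver releases in response to growth hormone, had 1104, 797 and 793 in the negative, positive and high gates of bezafibrate, against 831 and 806 in the positive and negative gates of control. Ghr, the growth hormone receptor, had 386, 297 and 285 in bezafibrate, against 263 and 264 in control. The treatments overlapped for Igf1 and lay apart by a small step for Ghr. The 2 lower genes, named after their values were seen, were Socs2 and Cish, feedback inhibitors of cytokine signalling that STAT5 induces. Socs2 had 38.5, 39.4 and 37.2 in bezafibrate, against 191 and 185 in the positive and negative gates of control. Cish had 5.07, 4.10 and 4.93 in bezafibrate, against 30.2 and 33.3 in control.

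Of 16 transcription factors of the hepatic or sex-biased programme, 14 passed the filter. At 2-fold, 2 were higher with bezafibrate and 2 lower for the negative gates, and 2 higher and 1 lower for the positive gates, beside all-gene shares of 10.3% and 5.86%, and 4.97% and 2.91%. The most abundant were Hnf4a, a nuclear receptor that maintains the hepatocyte programme, and Ppara, the receptor through which fibrates act in liver. Hnf4a had 638, 686 and 695 in the negative, positive and high gates of bezafibrate, against 1008 and 1032 in the positive and negative gates of control. Ppara had 609, 658 and 656 in bezafibrate, against 289 and 284 in control. The remaining factors past 2-fold, named after their values were seen, were Onecut1, Cebpb and Bcl6. Onecut1 (HNF6), which is higher in female liver, had 37.3, 27.7 and 28.4 in bezafibrate, against 385 and 402 in control. The second gene lower in the negative gates was Cebpb, a factor of the acute-phase response, at 159, 214 and 180.0 in bezafibrate, against 285 and 335 in control. Bcl6, a repressor that is higher in male liver and binds many STAT5 sites, had 125, 135 and 111 in bezafibrate, against 27.6 and 33.1 in control.

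Male-biased liver genes outside the family had a median log2 difference of 1.01 in the negative gate and 0.63 in the positive gate, over 13 of 15 genes past the filter. At 2-fold, 7 were higher with bezafibrate and 2 lower for the negative gates, and 3 higher and 3 lower for the positive gates, beside all-gene shares of 10.3% and 5.86%, and 4.97% and 2.91%. Egfr, the epidermal growth factor receptor, had 1952, 1553 and 1609 in the negative, positive and high gates of bezafibrate, against 1659 and 1678 in the positive and negative gates of control. Gstp1, a glutathione transferase, had 762, 595 and 595 in bezafibrate, against 338 and 378 in control. Female-biased genes had medians of -0.02 and -0.27 over 14 of 21, with 2 higher and 4 lower at 2-fold in each gate, beside the same all-gene shares. Cyp3a41a, a female-biased cytochrome P450 with a near-identical copy, had 218, 144 and 147 in bezafibrate, against 202 and 164 in control, and Cyp2b9 had 67.6, 60.1 and 59.2, against 169 and 162. The sources used here do not name the sex, and the part of sex in these values was not tested.

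Other lipocalins had medians of 1.11 and 0.94 over 6 of 11 genes past the filter, with 4 and 1 of them at least 2-fold higher and 0 lower, beside 10.3% and 4.97% of all genes higher. Ambp, the precursor of alpha-1-microglobulin, had 1373, 1158 and 1196 in the negative, positive and high gates of bezafibrate, against 584 and 594 in the positive and negative gates of control. Rbp4, the retinol carrier of blood, had 909, 846 and 946 in bezafibrate, against 706 and 699 in control. The lipocalin higher in both gates, named after its values were seen, was Orm1, an acute-phase glycoprotein, at 318, 248 and 231 in bezafibrate, against 70.3 and 72.1 in control. Other abundant secreted liver proteins had medians of 1.07 and 0.68 over 29 genes, with 17 and 5 at least 2-fold higher and 0 lower, beside the same shares. Apoe, a lipoprotein component, had 10806, 10789 and 11933 in bezafibrate, against 11846 and 11323 in control.

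Genes with the pattern most like the Mup sum were sought among 2412 genes with a mean of at least 50, by the root mean square difference of centred log2 values over 5 libraries. Nearest to the sum of the 8 listed genes were Cyb5a at 0.0737, Hsd3b3 at 0.0750, Tmem176a at 0.0765, Crp at 0.0797 and Fabp1 at 0.0807. For the sum of all 17 rows the nearest were other genes, and closer. They were Cxadr at 0.0408, Cd81 at 0.0414, Hpd at 0.0461, Gm10768 at 0.0488 and Ddt at 0.0494. Fabp1, the liver fatty acid binding protein, had 1420, 1114 and 964 in the negative, positive and high gates of bezafibrate, against 484 and 447 in the positive and negative gates of control. With 5 points that fall into 2 treatments, such likeness rests mainly on the treatment difference.

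The genes on either side of the cluster were at most 61.4 in every library, and their differences had both directions. Snx30, a sorting nexin 52067 bases before the cluster, had 13.7, 12.5 and 14.3 in the negative, positive and high gates of bezafibrate, against 16.2 and 19.9 in the positive and negative gates of control. Its fold was 0.689 (0.517 to 0.919) in the negative gate and 0.770 (0.554 to 1.07) in the positive gate. Fkbp15, 149479 bases after the cluster, had 51.1, 49.6 and 54.5 in bezafibrate, against 61.4 and 57.1 in control, with folds of 0.894 (0.764 to 1.05) and 0.808 (0.686 to 0.952). E130308A19Rik had 9.46 to 11.7 in bezafibrate and 17.5 to 19.8 in control, with folds of 0.649 (0.475 to 0.888) and 0.588 (0.427 to 0.807). Slc31a2, a copper transporter, had 3.78 to 7.46 in bezafibrate and 2.59 to 2.87 in control, with folds of 1.90 (1.02 to 3.78) and 1.46 (0.703 to 3.21). Inip and Zfp37 were at most 3.90 in every library.

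Promoters of Mup2, Mup10 and Mup3 are shown because Mup2 and Mup10 differed in direction between treatments while Mup3 can be placed without other copies. They run 250 bases before to 50 bases after the RefSeq start, 5′ to 3′ on the minus strand of GRCm38.p6, and capitals mark TATAA, the TATA box core, and ATCAAT, the core bound by HNF6.
Mup2, chr4:60139807-60140106, minus strand: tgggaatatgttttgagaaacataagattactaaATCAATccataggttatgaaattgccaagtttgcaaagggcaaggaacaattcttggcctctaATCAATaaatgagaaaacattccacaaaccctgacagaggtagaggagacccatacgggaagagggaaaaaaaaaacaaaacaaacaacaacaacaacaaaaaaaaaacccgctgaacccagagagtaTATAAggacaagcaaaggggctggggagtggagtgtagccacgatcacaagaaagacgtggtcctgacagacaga
Mup10, chr4:60582106-60582405, minus strand: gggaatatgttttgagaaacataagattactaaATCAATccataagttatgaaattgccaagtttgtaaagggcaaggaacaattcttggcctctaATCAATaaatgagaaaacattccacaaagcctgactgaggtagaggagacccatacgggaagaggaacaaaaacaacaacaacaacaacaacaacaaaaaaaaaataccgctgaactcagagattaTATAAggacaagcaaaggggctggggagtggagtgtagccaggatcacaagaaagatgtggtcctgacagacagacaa
Mup3, chr4:62087268-62087567, minus strand: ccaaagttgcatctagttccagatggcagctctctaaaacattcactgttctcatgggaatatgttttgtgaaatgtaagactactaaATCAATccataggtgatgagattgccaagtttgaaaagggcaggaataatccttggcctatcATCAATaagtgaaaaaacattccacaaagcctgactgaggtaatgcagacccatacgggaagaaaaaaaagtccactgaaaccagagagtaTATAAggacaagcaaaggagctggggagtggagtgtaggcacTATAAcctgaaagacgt
Where they align, the Mup10 promoter differs from that of Mup2 at 13 of 296 bases (95.6% identity) and the Mup3 promoter at 28 of 246 (88.6%). The table held promoters for 12 of the 17 Mup rows. On either strand, ATCAAT occurred in 12 of 12, against 7.54% of all 32851 promoters of the same length, and TATAA in 11 of 12, against 24.9%. AGGTCA, a nuclear receptor half-site, occurred in 1 of 12, against 16.3%, and the STAT5 consensus TTCNNNGAA in 0 of 12, against 8.30%. In the 3 promoters shown, capitals mark matches on the printed strand, and no match of one motif overlapped a match of another. The second TATAA of Mup3 lies after the RefSeq start, and is marked as a sequence match only. The motifs were chosen after the promoters were seen, and the copies share ancestry, so these counts describe 1 family.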

How the data were processed

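RNA was measured in 5 libraries of sorted hepatocytes, 1 per group, grouped by the labels. Per the labels' protocols, RNA came from a kit named for fixed tissue, ribosomal RNA was depleted and directional libraries were read as pairs of 150 bases. The submitters' processing notes name edgeR, RSEM, Bowtie2, Trimmomatic 0.36 and the build mm10, with no roles. The authors deposited a normalised signal per gene symbol, and the sources used here do not give its normalization. Divided by the smallest value above 0 of its library, 100% of values came out as whole reads, within 0.001 reads; totals were 5056884 to 7146578.

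Differences are on the log2(value + 1) scale, which understates those of low genes, over 8981 genes with a mean of at least 5. Ratios carry 95% intervals (exact, Clopper-Pearson) computed on the recovered reads, with a floor of 3 reads per library. Both cover counting error only, and the labels name no molecular identifiers. Counts of genes at 2-fold stand in for a test. edgeR 4.0.16 (R 4.3.3, quasi-likelihood, Benjamini-Hochberg) fitted gate and treatment on the recovered reads of 4 libraries as an alternative; its 1 residual degree of freedom does not measure replicates. Python 3.11.15, numpy 2.4.6, pandas 2.3.3, scipy 1.17.1, Biopython 1.88 and matplotlib 3.10.9 were used. Steps were tested on simulated data.

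Named were all Mup rows, the 2 most abundant genes of each list, the 5 genes nearest in pattern to each sum and up to 3 neighbours a side. Others are said to be chosen after their values were seen. Mup members and lists were chosen with earlier results of these data known. Coordinates and coding sequences are GENCODE for GRCm38, promoters RefSeq.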

Additional observations from a re-analysis of the deposited data

Results flagged for a closer look

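Several Mup values stood below 1 for positive over negative gate in bezafibrate libraries and above 1 in control libraries, with counting intervals on opposite sides of 1. The ratios were 0.884 in bezafibrate and 1.14 in control for Mup1, 0.781 and 1.16 for Mup2, 0.827 and 1.33 for Mup9, and 0.903 and 1.12 for Mup10. For the sum of the 8 listed genes they were 0.867 and 1.10, and for all 17 Mup rows 0.868 and 1.12. The bezafibrate ratio of the 8-gene sum turned to 1.30 when scaled by albumin, and that of Mup10 to just above 1 when scaled by totals without Rn45s. Albumin scaling was not run on single genes. It adds 0.58 to each log2 ratio of bezafibrate positive over negative, more than the size of each deposited difference named here. The direction in bezafibrate thus depends on the scaling for all of these values. With 1 library per gate and treatment the difference between treatments was not tested. The values share reads, since the copies are near-identical and Mup1 and Mup9 are part of both sums.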

How the results depend on the processing

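For the sum of the 8 listed Mup genes, bezafibrate over control in the negative and positive gates was 3.55 and 2.76 scaled by column totals, 2.52 and 2.21 without Rn45s, and 1.02 and 1.14 scaled by albumin. It was 2.32 and 1.79 for all 17 rows, 3.19 and 2.67 without Mup1, 2.33 and 1.82 with Gm2083 and 2.33 and 1.77 for central copies, the last 2 sums being chosen after seeing the data. Bezafibrate positive over negative was 0.961 without Rn45s, 0.839 without Mup1 and 1.30, reversed, by albumin. High over positive was 0.962 by totals, 0.906 without Rn45s, 0.819 by albumin, 0.909 with Gm2083 and 1.01, reversed, without Mup1. High over negative was 0.841 by totals, 0.870 without Rn45s, 0.847 without Mup1, 0.782 with Gm2083, 0.815 for central copies and 1.06, reversed, by albumin. Control positive over negative was 1.13 by totals, 1.15 by albumin, 1.12 for 17 rows, 1.0 without Mup1 and 1.16 for central copies. Median-of-ratios scaling and leaving out Mup19 kept the sum within its counting interval. Of 345 recomputed single-gene values, 290 stayed within their interval and 2 reversed, Mup10 for positive over negative (log2 difference 0.00065) and high over negative (0.040) in bezafibrate, scaled without Rn45s. The cause of these moves was not tested. Albumin scaling was not run on single genes. It adds 0.58 to each log2 ratio of bezafibrate positive over negative, before the pseudocount. The deposited differences of Mup1 (-0.18), Mup2 (-0.36), Mup9 (-0.27) and Mup10 (-0.15) there were smaller in size. Those of Mup21 (-0.64) and Mup19 (-4.63) were larger.

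Counts of all genes at 2-fold moved more. In the negative gate 1444 were higher and 267 lower by totals, 545 and 1053 without Rn45s, 574 and 301 with a mean of at least 20, with 809 lower without a filter and 317 lower with a pseudocount of 5. In the positive gate 820 were higher and 131 lower by totals, 273 and 132 with a mean of at least 20, and 273 and 138 with a pseudocount of 5, with 421 lower without a filter. Between gates, the counts for bezafibrate positive over negative, high over positive, high over negative and control positive over negative were 92, 133, 133 and 232 without a filter, 8, 4, 7 and 3 with a mean of at least 20, and 14, 8, 9 and 3 with a pseudocount of 5. In both gates at once 358 genes were at least 2-fold higher in bezafibrate and 191 lower, against 660 and 99 by totals, 310 lower without Rn45s, 111 lower with a mean of at least 20, and 235 and 112 with a pseudocount of 5. The edgeR fit on recovered reads called 2166 genes higher and 1944 lower at an adjusted p under 0.05, of 8981 fitted, with 1 residual degree of freedom. With Mup19 counted, 8 of 8 listed genes were 2-fold higher in the negative gate and 5 of 8 in the positive gate. The medians were 2.23 and 1.5. Mup19 passed the filter through 1 library, so its difference in the negative gate was fixed by the filter. Scaling by totals changed the log2 ratio of each gene, before the pseudocount, by 0.23 and 0.21 in the negative and positive gates. Totals without Rn45s changed it by -0.26 and -0.11. The fit of treatment in 4 libraries has gate as its block; no block by replicate was possible because each group has 1 library and the labels give no replicate numbers.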
